A study of Homo sapiens with 60 samples.

Results

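A set of 10 genes that are switched on by the ERK pathway and act back on it, or carry its output to other genes, were followed through 60 RNA-seq libraries of SW1783 cells, a human astrocytoma line: the phosphatases DUSP4, DUSP5 and DUSP6, the Sprouty and SPRED inhibitors SPRY2, SPRY4, SPRED1 and SPRED2, the transcription factors ETV4 and ETV5, and PHLDA1. They were listed by name, with earlier results of these data known, and are 10 of the 60675 genes of the deposited table. Each was found once by its Ensembl identifier. The cells were treated for 24 h, and the libraries fall into 22 groups by treatment and dose. Wortmannin, LY294002 and thioridazine, each at 10 µM, had 3 libraries apiece. Hot-water extracts of 6 medicinal materials were given at 20, 100 and 500 µg/mL, called low, medium and high dose here: Poria Cocos (poria), Atractylodis Rhizoma (atractylodes), Glycyrrhizae Radix (licorice), Panax Ginseng (ginseng), Angelicae Gigantis Radix (angelica) and Paeoniae Radix (peony). Every poria, atractylodes, licorice and ginseng group had 3 libraries, and every angelica and peony group had 2. The reference was vehicle, DMSO, with 3 libraries. All groups share the one established line and its medium with 10% FBS, a source of growth factors.

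ERK is the last kinase of a relay that runs from growth-factor receptors through RAS, RAF and MEK to the nucleus. DUSP6 removes the activating phosphates from ERK in the cytoplasm, while DUSP4 and DUSP5 act in the nucleus. The Sprouty proteins and their SPRED relatives hold the relay back further up, near receptors, RAS and RAF. ETV4 and ETV5 are ETS-family transcription factors of the PEA3 group whose transcripts follow ERK activity in many cells, and PHLDA1 is a pleckstrin-homology-like protein induced by growth factors and by several kinds of stress. Because such transcripts are made when ERK is active, several of them are widely used as a readout of the pathway. Wortmannin and LY294002 inhibit PI3-kinase, the head of a neighbouring pathway, and thioridazine is a phenothiazine antipsychotic. Only RNA was measured, and no phosphorylation or protein level is reported.

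Library totals ran from 19.45 M to 30.87 M counts. Levels are given as CPM, a gene's counts per M counts of the TMM-scaled library. The defining astrocyte markers GFAP, AQP4, ALDH1L1 and S100B averaged 0.0831, 0.0115, 0.0115 and 0.12 CPM in vehicle, at or near 0, while VIM averaged 6017 CPM, CD44 2746 CPM, SOX9 81.4 CPM and SLC1A3 21.9 CPM. In 3 libraries, atractylodes high replicate 1, licorice medium replicate 3 and ginseng low replicate 1, the SD of the log2 difference from the rest of their group was above 0.15 over genes. The angelica low pair also differed from each other by more than this (0.185), and which of the pair stands apart cannot be told. The sample codes put the vehicle libraries in a set of their own, the drugs in another, and the extracts in 3 more, by pairs of extracts. A difference from vehicle therefore cannot be told apart from a difference between sets, while drugs against each other, and high against low dose of an extract, were compared within a set.

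All 10 genes passed the filter on low counts, with raw counts between 142 and 11600 over all libraries. Per kilobase of exon, the vehicle level was highest for PHLDA1 at 28.5 CPM per kb, then ETV5 at 21.3 and DUSP4 at 15.1. SPRY2 stood at 8.71, SPRED1 at 7.37, SPRED2 at 7.16, DUSP6 at 6.51, DUSP5 at 6.31 and SPRY4 at 5.08 CPM per kb. ETV4, at 2.54 CPM per kb, was the lowest, and lay at the 47.7th percentile of the genes tested, against the 91.5th for PHLDA1.

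The promoters of DUSP6, SPRY4 and PHLDA1 are shown because the results on the extracts turn on these genes. Each runs from 250 bases before to 50 bases after the RefSeq start on GRCh38.p14, 5′ to 3′ on the minus strand: DUSP6 at chr12:89352452-89352751, SPRY4 at chr5:142324198-142324497 and PHLDA1 at chr12:76031727-76032026. Capitals mark the ETS core GGAA on either strand, the letters that ETV4, ETV5 and other ETS factors recognise.
DUSP6: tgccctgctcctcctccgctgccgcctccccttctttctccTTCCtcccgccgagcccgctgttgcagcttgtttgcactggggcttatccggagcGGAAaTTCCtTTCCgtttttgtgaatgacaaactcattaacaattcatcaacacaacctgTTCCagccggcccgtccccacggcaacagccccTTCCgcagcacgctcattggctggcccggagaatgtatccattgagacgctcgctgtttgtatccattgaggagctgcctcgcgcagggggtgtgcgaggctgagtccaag
SPRY4: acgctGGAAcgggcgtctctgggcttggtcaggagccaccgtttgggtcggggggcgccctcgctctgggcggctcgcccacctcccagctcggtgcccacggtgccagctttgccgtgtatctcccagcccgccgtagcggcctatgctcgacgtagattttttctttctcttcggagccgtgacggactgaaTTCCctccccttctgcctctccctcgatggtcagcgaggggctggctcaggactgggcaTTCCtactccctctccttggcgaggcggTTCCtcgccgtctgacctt
PHLDA1: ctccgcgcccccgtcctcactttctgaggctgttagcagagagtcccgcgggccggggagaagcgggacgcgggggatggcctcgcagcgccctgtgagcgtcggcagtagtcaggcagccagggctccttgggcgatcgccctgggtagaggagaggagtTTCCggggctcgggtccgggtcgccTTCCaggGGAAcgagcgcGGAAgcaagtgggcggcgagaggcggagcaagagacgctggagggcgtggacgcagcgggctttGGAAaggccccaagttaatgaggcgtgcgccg
The core occurs 6 times in the DUSP6 window, 4 times in that of SPRY4 and 5 times in that of PHLDA1. It is also in 95.5% of the 35116 human promoter windows of the same length, with a median of 3, so its presence does not set these genes apart. The longer ETS motif CCGGAAG, present in 10.3% of the windows, the CRE motif TGACGTCA (1.85%) and the AP-1 motif TGANTCA (7.71%) were not found on either strand in the 3 windows. The GENCODE spans given below reach further upstream than these windows, and other starts of the 3 genes were not searched. RefSeq windows also matched SPRY2, SPRED1 and SPRED2.

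On GRCh38 with GENCODE 29, DUSP6 lies at chr12:89347232-89353271 on the minus strand, SPRY2 at chr13:80335976-80340951 (minus), SPRY4 at chr5:142310427-142326455 (minus) and PHLDA1 at chr12:76025447-76033932 (minus). DUSP4 is at chr8:29333064-29350668 (minus), DUSP5 at chr10:110497838-110511544 (plus), ETV4 at chr17:43527844-43579620 (minus) and ETV5 at chr3:186046308-186110318 (minus). SPRED1 spans chr15:38252326-38357249 (plus) and SPRED2 chr2:65310851-65432637 (minus). Antisense genes overlap DUSP6, SPRY4, ETV5 and PHLDA1, and DHX8 on the other strand overlaps ETV4. On the same strand, DGKG and a small RNA gene overlap ETV5, and the intronic transcript AC012370.1 overlaps SPRED2. The library kit keeps the strand, but how strand was set in counting is not stated in the notes used, and reads of such partners cannot be told apart with certainty. For same-strand partners no strand setting would separate them.

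With wortmannin, every one of the 10 genes differed from vehicle: 9 were higher and DUSP5 was lower, at an adjusted p under 0.05 (edgeR's quasi-likelihood F-test with Benjamini-Hochberg adjustment over 17919 genes, used for every adjusted p here). Drug and set of sample codes cannot be separated in this comparison, nor in those of the other drugs with vehicle. Over all genes tested, 31.7% passed in the same comparison, 15.4% higher and 16.4% lower. The median log2 fold change of the 10 was 0.32, against 0.02 over all genes. Among the phosphatases, DUSP6 stood at 47.4, 49.3 and 42.4 CPM in wortmannin, against 31.6, 30.9 and 28.0 CPM in vehicle, a log2 fold change of 0.62 ± 0.06 (SE, adjusted p = 6.16e-13). DUSP4 read 162, 168 and 156 CPM in wortmannin, against 109, 110 and 109 CPM in vehicle (0.57 ± 0.05, adjusted p = 7.25e-13). Both genes were higher in each wortmannin library than in any vehicle library. DUSP5, whose product retains ERK in the nucleus, went the other way at 12.7, 12.5 and 12 CPM in wortmannin, against 15.6, 16.9 and 17.0 CPM in vehicle (-0.41 ± 0.08, adjusted p = 5.89e-05), again with no overlap. In bulk RNA, fewer cells of a type and less RNA per cell cannot be told apart.

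The Sprouty and SPRED genes rose by like amounts with wortmannin, with log2 fold changes of 0.34 ± 0.06 for SPRY2, 0.31 ± 0.07 for SPRY4, 0.29 ± 0.05 for SPRED1 and 0.33 ± 0.06 for SPRED2. ETV4, the scarcest of the 10, had the greatest relative rise among them, with 15.9, 16.8 and 15.5 CPM in wortmannin, against 8.99, 8.39 and 10.1 CPM in vehicle (0.81 ± 0.09, adjusted p = 1.57e-10). ETV5 averaged 144 ± 5.51 CPM in wortmannin and 124 ± 3.23 CPM in vehicle (SD, n = 3 each), and PHLDA1 258 ± 11.2 CPM in wortmannin and 230 ± 1.74 CPM in vehicle. For all 10 genes the wortmannin and vehicle libraries did not overlap. The share of all genes without such overlap was not counted, here or in the comparisons below.

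With LY294002, the other PI3-kinase inhibitor, 6 of the 10 genes differed from vehicle: 5 were higher and PHLDA1 was lower. In that comparison 39.3% of all genes passed, 19.4% higher and 19.9% lower. DUSP6 read 41.7, 41.1 and 39.9 CPM in LY294002, against 31.6, 30.9 and 28.0 CPM in vehicle (0.44 ± 0.06, adjusted p = 1.12e-08). DUSP4 (0.31 ± 0.05), SPRY2 (0.28 ± 0.06), ETV4 (0.32 ± 0.09) and ETV5 (0.16 ± 0.04) also rose. PHLDA1 held 190, 193 and 198 CPM in LY294002, below the 232, 229 and 230 CPM of vehicle (-0.25 ± 0.04, adjusted p = 7.05e-07). Differences of SPRY4 (0.05 ± 0.07), SPRED1 (0.04 ± 0.05), SPRED2 (0.06 ± 0.07) and DUSP5 (-0.13 ± 0.08) did not pass the test, and their LY294002 and vehicle libraries overlapped.

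With thioridazine, 9 of the 10 genes were higher than in vehicle, in a comparison in which 48.4% of all genes passed, 24.6% higher and 23.8% lower. SPRY2 read 53.6, 52.1 and 52.8 CPM in thioridazine, against 26.4, 27.5 and 25.4 CPM in vehicle (1.00 ± 0.06, adjusted p = 1.38e-20). PHLDA1 read 408, 399 and 433 CPM in thioridazine, against 232, 229 and 230 CPM in vehicle (0.84 ± 0.04, adjusted p = 2.48e-25). ETV4 averaged 15.2 ± 1.23 CPM in thioridazine and 9.17 ± 0.884 CPM in vehicle (0.73 ± 0.09), and ETV5 177 ± 2.4 CPM in thioridazine and 124 ± 3.23 CPM in vehicle (0.52 ± 0.04; SD, n = 3 each). These 4 genes had their thioridazine libraries clear of vehicle. DUSP4 (0.42 ± 0.05), DUSP5 (0.33 ± 0.08), SPRY4 (0.32 ± 0.07), SPRED2 (0.33 ± 0.06) and SPRED1 (0.15 ± 0.05) rose too, and their thioridazine libraries were also clear of vehicle. DUSP6 did not pass, at 33.1, 31.6 and 33.1 CPM in thioridazine, against 31.6, 30.9 and 28.0 CPM in vehicle (0.11 ± 0.06, adjusted p = 0.109), though it passed when vehicle replicate 1 was left out.

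Summed marker lists differed in the same comparisons, beside the 10 genes. The summed level of the 4 neuronal markers ran from 75.5 to 83.4 CPM in wortmannin, 61.1 to 64.9 in LY294002 and 84.3 to 89.3 in thioridazine, against 56.8 to 59.2 CPM in vehicle. It rests on SYT1 and SNAP25, since RBFOX3 and STMN2 each averaged 0.179 CPM in vehicle. The 4 microglia and blood markers summed to 187 to 199 CPM in wortmannin, 183 to 195 in LY294002 and 229 to 238 in thioridazine, against 170 to 182 CPM in vehicle, where CD68 alone averaged 169 CPM. The astroglial sum, mainly VIM and CD44, was lower, at 8354 to 8538 CPM in wortmannin, 8046 to 8566 in LY294002 and 6358 to 6544 in thioridazine, against 8642 to 9035 CPM in vehicle. The oligodendrocyte sum ran from 5.85 to 7.19 CPM in wortmannin and 9.2 to 11.1 in thioridazine, against 5.24 to 5.71 CPM in vehicle, and the endothelial sum from 1.15 to 1.86 in wortmannin and 1.5 to 2.35 in thioridazine, against 0.567 to 1.01 CPM in vehicle. The epithelial sum was at most 0.261 CPM in these groups. The part of these markers in the changes of the 10 genes was not tested.

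**Figure D1:**
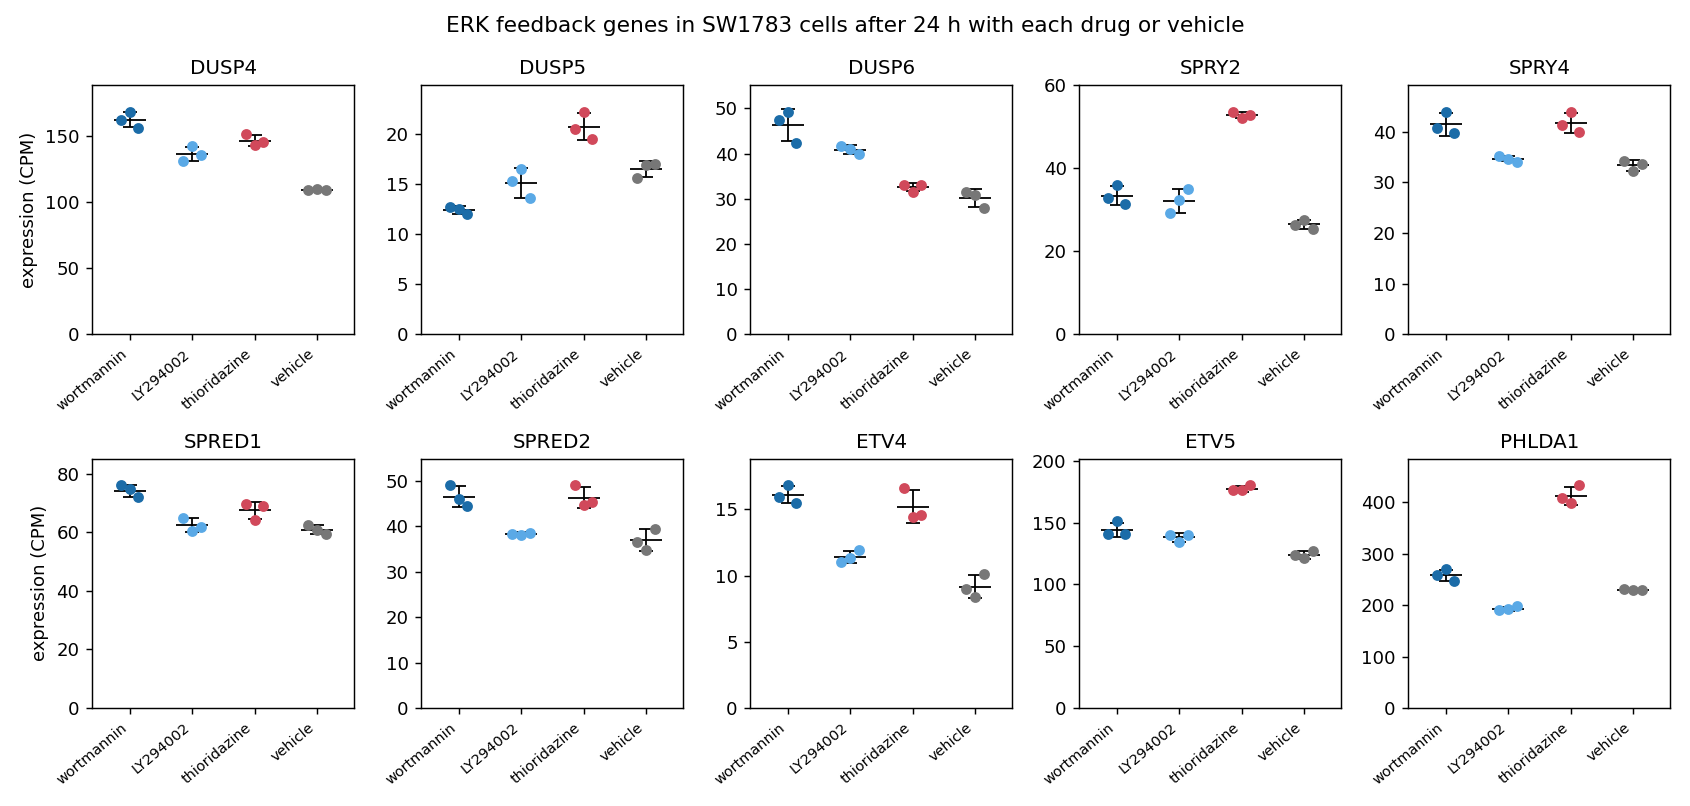
Expression of the 10 genes in CPM (vertical axes from 0) in the 3 libraries of wortmannin, LY294002, thioridazine and vehicle; points are libraries, and bars give the group mean and SD. DUSP6 is highest in wortmannin at 46.3 CPM on average, SPRY2 in thioridazine at 52.8 CPM, and DUSP5 is lower in wortmannin (12.4 CPM) than in vehicle (16.5 CPM).

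Set against each other, thioridazine and wortmannin separated DUSP5 from DUSP6 and DUSP4. DUSP5 was higher in thioridazine than in wortmannin, at 20.5, 22.2 and 19.5 CPM in thioridazine, against 12.7, 12.5 and 12 CPM in wortmannin (0.74 ± 0.08, adjusted p = 3.11e-11). DUSP6 was lower in thioridazine than in wortmannin (-0.51 ± 0.06, adjusted p = 7.71e-11) and lower than in LY294002 (-0.33 ± 0.06, adjusted p = 4.49e-06), with no overlap of libraries in either case. DUSP4 was also lower in thioridazine than in wortmannin (-0.15 ± 0.05, adjusted p = 0.0203), a call lost without wortmannin replicate 1 or 2 or thioridazine replicate 2 or 3. The gene for the cytoplasmic ERK phosphatase and that for DUSP5 moved in opposite directions between thioridazine and wortmannin.

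Across the 10 genes, thioridazine against wortmannin gave 4 higher and 3 lower, where 38.7% of all genes passed (18.9% higher, 19.8% lower), and thioridazine against LY294002 gave 8 higher and 1 lower, where 40% passed (19.5% higher, 20.4% lower). SPRY2 (0.66 ± 0.06), PHLDA1 (0.68 ± 0.04) and ETV5 (0.30 ± 0.04) were higher in thioridazine than in wortmannin, and SPRED1 was lower (-0.14 ± 0.05, adjusted p = 0.0163), a call lost without wortmannin replicate 1 or 2 or thioridazine replicate 2. The differences of SPRY4 (0.01 ± 0.07), SPRED2 (0.00 ± 0.06) and ETV4 (-0.08 ± 0.09) between these drugs did not pass. Between the 2 PI3-kinase inhibitors, 7 genes were higher and DUSP5 lower in wortmannin than in LY294002, where 16.4% of all genes passed, 8.79% higher and 7.57% lower. PHLDA1 differed by 0.42 ± 0.04 (adjusted p = 8.20e-12), ETV4 by 0.49 ± 0.09 (adjusted p = 3.81e-05), and SPRED1, SPRED2, SPRY4 and DUSP4 by 0.25 to 0.27. DUSP6 differed by 0.18 ± 0.06 (adjusted p = 0.0186), a call lost without wortmannin replicate 1 or 2 or LY294002 replicate 2 or 3, and that of DUSP5 was lost without wortmannin replicate 3 or LY294002 replicate 2. SPRY2 (0.05 ± 0.06) and ETV5 (0.06 ± 0.04) did not pass. One dose of each drug was given, so potency and kind of response cannot be told apart.

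Within extracts, the high dose was compared with the low dose of the same extract. Of the 60 pairs of gene and extract, 18 were higher and 1 was lower at the high dose, where 5.88% of all such gene tests passed, 2.9% higher and 2.98% lower. PHLDA1 rose in all 6 extracts and DUSP6 in 5. PHLDA1 read 320, 311 and 300 CPM at high dose of poria, against 226, 217 and 213 CPM at low dose (0.50 ± 0.04, adjusted p = 3.61e-14). It read 274 and 258 CPM at high dose of angelica, against 201 and 187 CPM at low dose (0.45 ± 0.05), and 251 and 270 CPM at high dose of peony, against 192 and 191 CPM at low dose (0.44 ± 0.05). Every high-dose library of these extracts was above every low-dose library. It also rose with atractylodes (0.29 ± 0.04), licorice (0.25 ± 0.04) and ginseng (0.24 ± 0.04), without overlap. At the medium dose, PHLDA1 averaged 252 CPM in poria and 211 to 227 CPM in the other extracts, between the low and high dose in 5 extracts and level with the low dose in licorice at 3 significant digits.

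DUSP6 read 36.8, 39.4 and 41.0 CPM at high dose of licorice, against 26.7, 26.5 and 26.7 CPM at low dose (0.55 ± 0.06, adjusted p = 6.87e-11). With poria it read 34.2, 33.8 and 34.2 CPM at high dose, against 24.1, 23.6 and 26.8 CPM at low dose (0.45 ± 0.06, adjusted p = 1.97e-07). Both sets of libraries were clear of each other. Peony (0.34 ± 0.07), ginseng (0.30 ± 0.06) and atractylodes (0.23 ± 0.06) also raised it. The call was lost with peony without low replicate 2, with ginseng without low replicate 1 or 2, and with atractylodes without high replicate 3 or low replicate 2 or 3. With angelica it read 31.5 and 28.0 CPM at high dose, against 23.9 and 26.8 CPM at low dose, without overlap, but the difference did not pass (0.23 ± 0.07, adjusted p = 0.112).

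SPRY2 rose with 3 extracts. It read 35.2, 34.8 and 36.8 CPM at high dose of licorice, against 24.4, 24.7 and 25.5 CPM at low dose (0.52 ± 0.06, adjusted p = 3.66e-09), and it rose with atractylodes (0.34 ± 0.06) and poria (0.24 ± 0.06), where the call was lost without poria high replicate 1 or low replicate 2. With ginseng, angelica and peony its differences of 0.11 ± 0.06, 0.07 ± 0.08 and 0.06 ± 0.08 did not pass. SPRED1 and SPRED2 did not pass in any of the 6 extracts, at -0.06 to 0.11 and -0.15 to 0.01. ETV5 and ETV4 each passed with 1 extract: ETV5 fell with peony, at 104 and 109 CPM at high dose, against 118 and 120 CPM at low dose (-0.16 ± 0.04, adjusted p = 0.0217), and ETV4 rose with licorice (0.31 ± 0.09, adjusted p = 0.0131). The ETV5 call was lost without peony high replicate 1 or either peony low library, and the ETV4 call without licorice high replicate 1 or low replicate 2 or 3.

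As the mean over the 6 extracts, in a contrast added after the values were seen, the high doses exceeded the low doses for PHLDA1 (0.36 ± 0.02), DUSP6 (0.35 ± 0.03), SPRY2 (0.22 ± 0.03), DUSP4 (0.09 ± 0.02) and SPRY4 (0.09 ± 0.03), where 14.5% of all genes passed in either direction. SPRY4 (adjusted p = 0.0405) lost the call when any of several single libraries was left out, and DUSP4 (adjusted p = 0.00675) only without peony high replicate 2. The count of genes called was 3 each with poria, atractylodes and peony, 2 with ginseng and 1 with angelica, where 5.51%, 4.1%, 5.9%, 0.653% and 0.943% of all genes passed. Leaving out peony low replicate 2 took the peony count to 1, and ginseng low replicate 1 or 2 the ginseng count to 1. With the 2 atractylodes doses or the 2 angelica doses fitted alone, those calls were lost, PHLDA1 then having adjusted p-values of 0.0642 and 0.095.

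**Figure D2:**
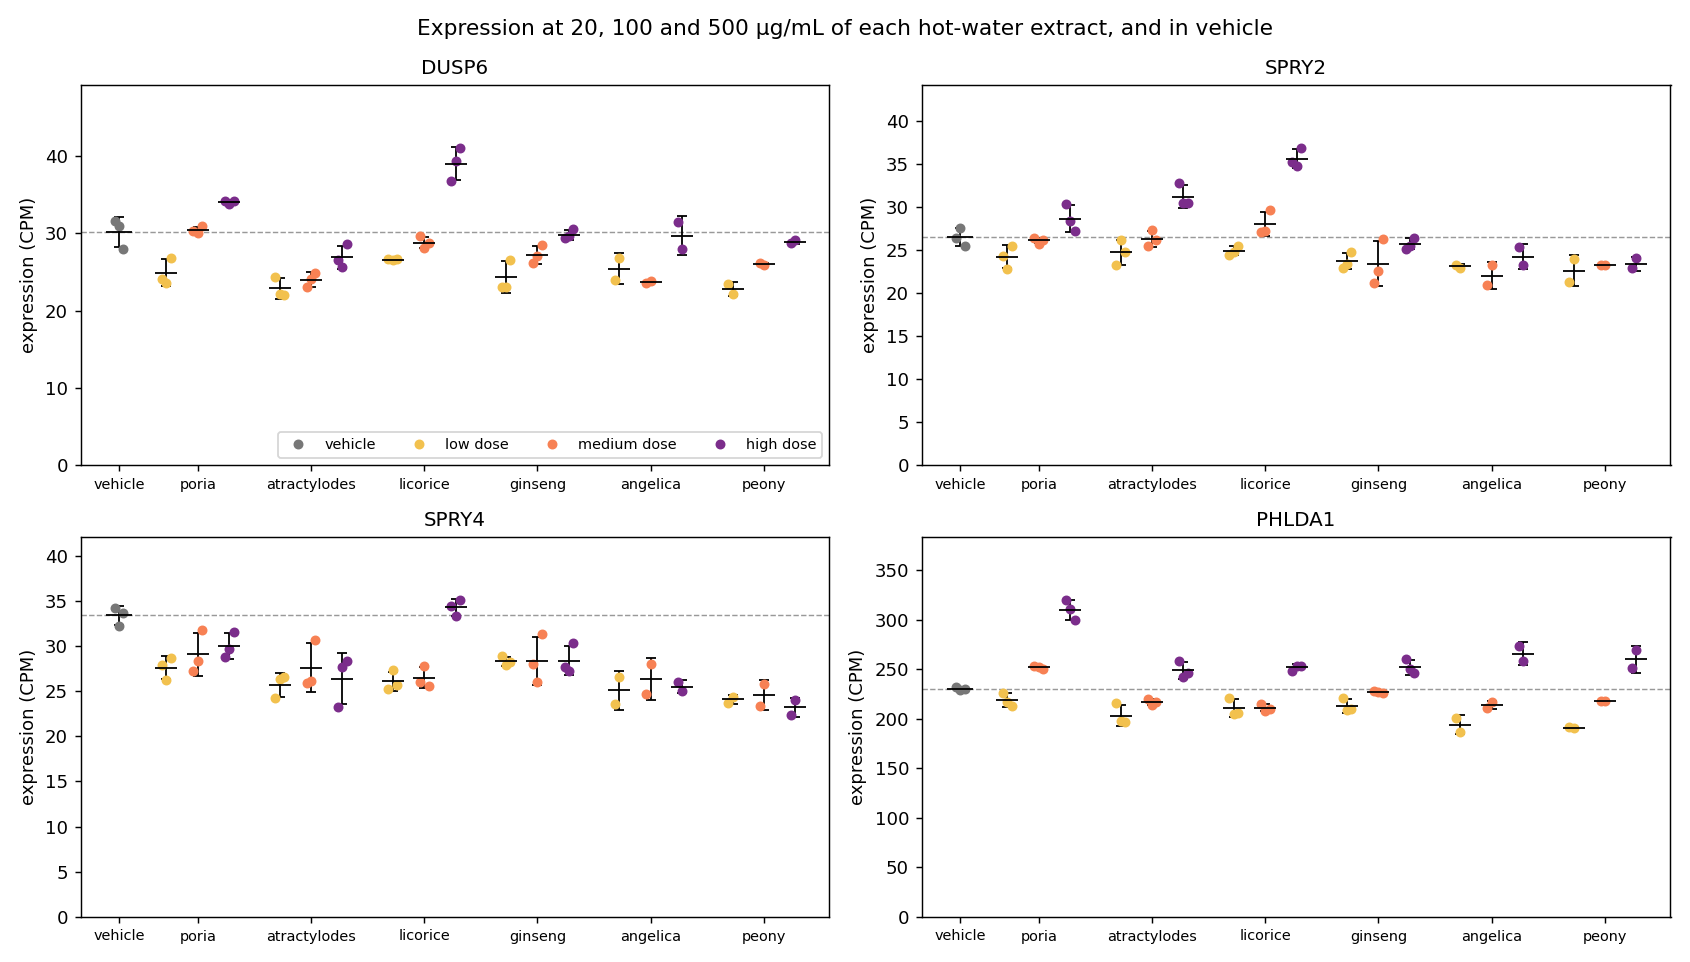
Expression of DUSP6, SPRY2, SPRY4 and PHLDA1 in CPM (vertical axes from 0) in vehicle and at low, medium and high dose of the 6 extracts; points are libraries, bars give the group mean and SD, and the dashed line is the vehicle mean. PHLDA1 is above its vehicle mean of 230 CPM at high dose of each extract, while SPRY4 is below its vehicle mean of 33.4 CPM in each extract group but licorice high (34.3 CPM).

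Licorice had the most genes called, with 7 of the 10 genes higher at high than at low dose, where 18.2% of all genes passed and 9.02% passed upward. DUSP4 read 134, 142 and 143 CPM at high dose, against 101, 107 and 111 CPM at low dose (0.40 ± 0.05, adjusted p = 4.27e-08). SPRY4 read 34.4, 33.3 and 35.1 CPM at high dose, against 25.3, 27.3 and 25.7 CPM at low dose (0.39 ± 0.07, adjusted p = 1.38e-05), and DUSP5 18.5, 16.4 and 19.8 CPM at high dose, against 15.4, 15.5 and 14.2 CPM at low dose (0.28 ± 0.08, adjusted p = 0.00747). None of these 3 genes overlapped between the doses, and the DUSP5 call was lost without licorice high replicate 3 or low replicate 3. At the medium dose of licorice, DUSP4 read 107, 117 and 123 CPM, DUSP6 29.6, 28.1 and 28.7 CPM, SPRY2 27.1, 27.2 and 29.6 CPM, and SPRY4 26.0, 27.8 and 25.6 CPM. The medium-dose and low-dose libraries of DUSP4 and of SPRY4 overlapped.

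The step from low to high dose was larger with licorice than on average over the other 5 extracts for DUSP4 (by 0.37 ± 0.06), DUSP5 (0.38 ± 0.09), SPRY4 (0.37 ± 0.08), SPRY2 (0.35 ± 0.07) and DUSP6 (0.24 ± 0.07), with adjusted p-values of 2.49e-06, 0.00129, 0.000295, 0.000125 and 0.00495. This difference of differences, added after the values were seen, passed for 19.8% of all genes, 10.2% with a larger and 9.52% with a smaller step. These 5 calls held when each library was left out in turn. PHLDA1 had a smaller step with licorice than over the other 5 (-0.13 ± 0.04, adjusted p = 0.0259). With poria the step of PHLDA1 exceeded the others by 0.17 ± 0.04 (adjusted p = 0.0331), in a contrast that 1.42% of all genes passed, 0.731% upward. Both PHLDA1 calls were lost when any of several single libraries was left out. The summed level of the 4 microglia and blood markers ran from 219 to 251 CPM at high dose of licorice, against 169 to 180 CPM at low dose, with AIF1 and HBB at 0 in vehicle. The astroglial sum ran from 6868 to 7181 CPM at high dose of licorice, against 7667 to 7947 CPM at low dose, and the neuronal sum from 47.1 to 49.9 CPM at high dose, against 55.5 to 57.6 CPM at low dose. The neuronal sum was also lower at high than at low dose of poria (46.7 to 51.3 against 55.1 to 56.9 CPM), angelica (53.6 to 53.9 against 58.1 to 58.3 CPM) and peony (52.6 to 55.1 against 56.7 to 58.3 CPM). The oligodendrocyte sum was higher at high than at low dose of poria (7.02 to 7.86 against 5.97 to 6.41 CPM) and peony (7.87 to 9.6 against 5.64 to 7.03 CPM), and the microglia and blood sum was lower with poria (133 to 146 against 149 to 168 CPM) and angelica (137 to 144 against 158 to 193 CPM). The endothelial and epithelial sums were at most 3.23 CPM in the high-dose and low-dose groups. The part of these markers in the results on the extracts was not tested.

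**Figure D3:**
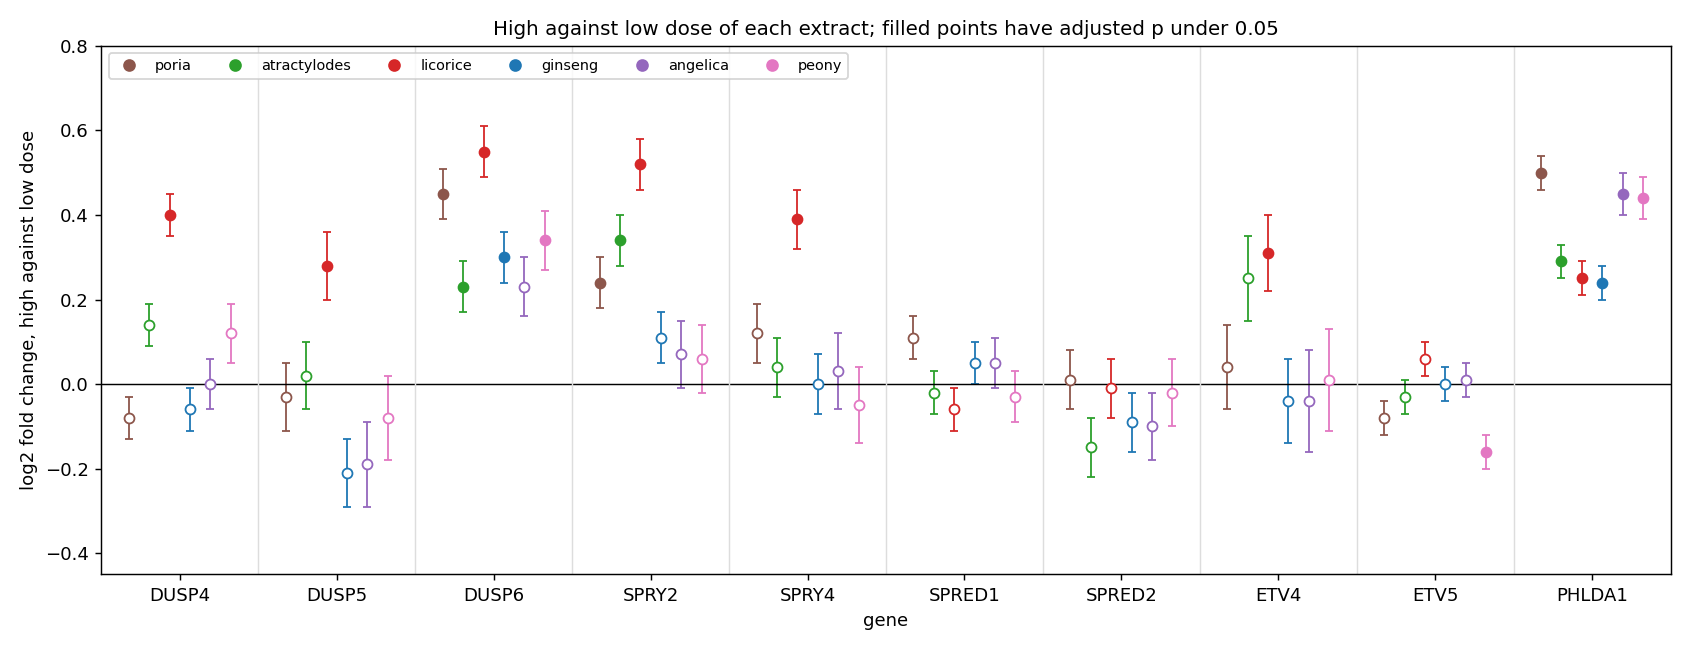
Log2 fold change of each of the 10 genes at high against low dose of each extract, with its SE as the bar; filled points passed at an adjusted p under 0.05. Licorice is above the other extracts for DUSP4 (0.40), DUSP5 (0.28), SPRY2 (0.52) and SPRY4 (0.39), and PHLDA1 is filled in all 6 extracts.

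Against vehicle, low doses of the extracts went with lower levels of several of the genes. Extract and set of sample codes cannot be separated here, nor in the comparisons of the medium and high doses with vehicle. Of the 60 pairs of gene and extract, 17 passed at the low dose, each lower than vehicle, where 2.01% of all gene tests passed and 1.02% passed downward. At the medium dose 9 of 60 passed, each lower, where 5.63% passed and 2.84% passed downward. SPRY4 and DUSP6 each fell with 5 of the 6 low-dose extracts. SPRY4 read 23.7 and 24.4 CPM at low dose of peony, and 25.3, 27.3 and 25.7 CPM at low dose of licorice, against 34.2, 32.2 and 33.7 CPM in vehicle (-0.47 ± 0.08 and -0.35 ± 0.07, adjusted p = 8.59e-05 and 0.00099). DUSP6 read 23.4 and 22.2 CPM at low dose of peony, and 24.4, 22.2 and 22 CPM at low dose of atractylodes, against 31.6, 30.9 and 28.0 CPM in vehicle (-0.41 ± 0.07 and -0.40 ± 0.06). In these comparisons every extract library was below every vehicle library.

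The mean of the 6 low-dose groups was below vehicle for SPRY4 (-0.35 ± 0.05), DUSP6 (-0.31 ± 0.04), DUSP5 (-0.27 ± 0.06), PHLDA1 (-0.17 ± 0.03) and SPRED2 (-0.17 ± 0.05), where 5.35% of all genes passed and 2.99% passed downward. This contrast was added after the values were seen, and DUSP5 lost the call without vehicle replicate 2 or 3, and SPRED2 without vehicle replicate 1 or 3, angelica low replicate 1 or peony low replicate 1. DUSP4 (-0.07 ± 0.04), SPRED1 (-0.03 ± 0.04) and ETV5 (-0.03 ± 0.03) did not pass, nor did SPRY2 (-0.15 ± 0.05, adjusted p = 0.0556) and ETV4 (-0.19 ± 0.07, adjusted p = 0.127). The comparisons with vehicle share its 3 libraries, so the same direction in several extracts is not independent evidence. Without vehicle replicate 1 the 17 low-dose calls became 9 and the 9 medium-dose calls 6.

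At high dose, 12 of the 60 pairs of gene and extract were above vehicle and 15 below it, where 15.1% of all gene tests passed, 7.43% higher and 7.7% lower. PHLDA1 was above vehicle with all 6 extracts, by 0.43 ± 0.04 with poria (adjusted p = 4.65e-12) and by 0.11 to 0.21 with the others. Leaving out 1 library ended that call with atractylodes (any vehicle library or high replicate 1), ginseng (any vehicle library or high replicate 1 or 2), angelica (high replicate 1) and peony (high replicate 2). DUSP5 was below vehicle with 5 extracts, at 12.2, 11.2 and 11.9 CPM with ginseng, against 15.6, 16.9 and 17.0 CPM in vehicle (-0.48 ± 0.08, adjusted p = 5.87e-05). SPRY4 was below vehicle with 4 extracts, at 22.4 and 24.0 CPM with peony, against 34.2, 32.2 and 33.7 CPM in vehicle (-0.52 ± 0.08, adjusted p = 1.96e-06), and SPRED2 with 4, at 26.5, 30 and 31 CPM with atractylodes, against 36.5, 34.7 and 39.5 CPM in vehicle (-0.34 ± 0.07). None of these libraries overlapped with vehicle.

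With licorice at high dose, 5 of the 10 were above vehicle and SPRED2 was below it, where 30.9% of all genes passed (15.9% higher, 15% lower): SPRY2 by 0.43 ± 0.06, DUSP6 by 0.37 ± 0.06, DUSP4 by 0.35 ± 0.05, ETV4 by 0.31 ± 0.09 (lost without vehicle replicate 2) and PHLDA1 by 0.13 ± 0.04. SPRY4, raised against the low dose, stood at 34.3 ± 0.923 CPM with licorice at high dose and 33.4 ± 1.05 CPM in vehicle (SD, n = 3 each) and did not pass (0.04 ± 0.07). Peony at high dose gave 1 gene higher and 5 lower, where 20.7% passed (10.3% higher, 10.4% lower), ETV5 among the lower at 104 and 109 CPM with peony, against 124, 121 and 127 CPM in vehicle (-0.21 ± 0.04, adjusted p = 0.000105). Poria gave 2 higher and 1 lower (11.6% of all genes passed, 5.17% higher and 6.41% lower), atractylodes 2 higher and 3 lower (13.9%, with 7.24% and 6.63%), ginseng 1 higher and 3 lower (7.25%, with 3.05% and 4.2%), and angelica 1 higher and 2 lower (6.46%, with 2.94% and 3.53%). The ginseng count fell to 1 without vehicle replicate 1, vehicle replicate 3 or ginseng high replicate 2, and the angelica count to 1 without either angelica high library. Without atractylodes high replicate 1, which stands apart, its count was 3, and the rise of PHLDA1 there (0.11 ± 0.04, adjusted p = 0.0476) no longer passed.

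**Figure D4:**
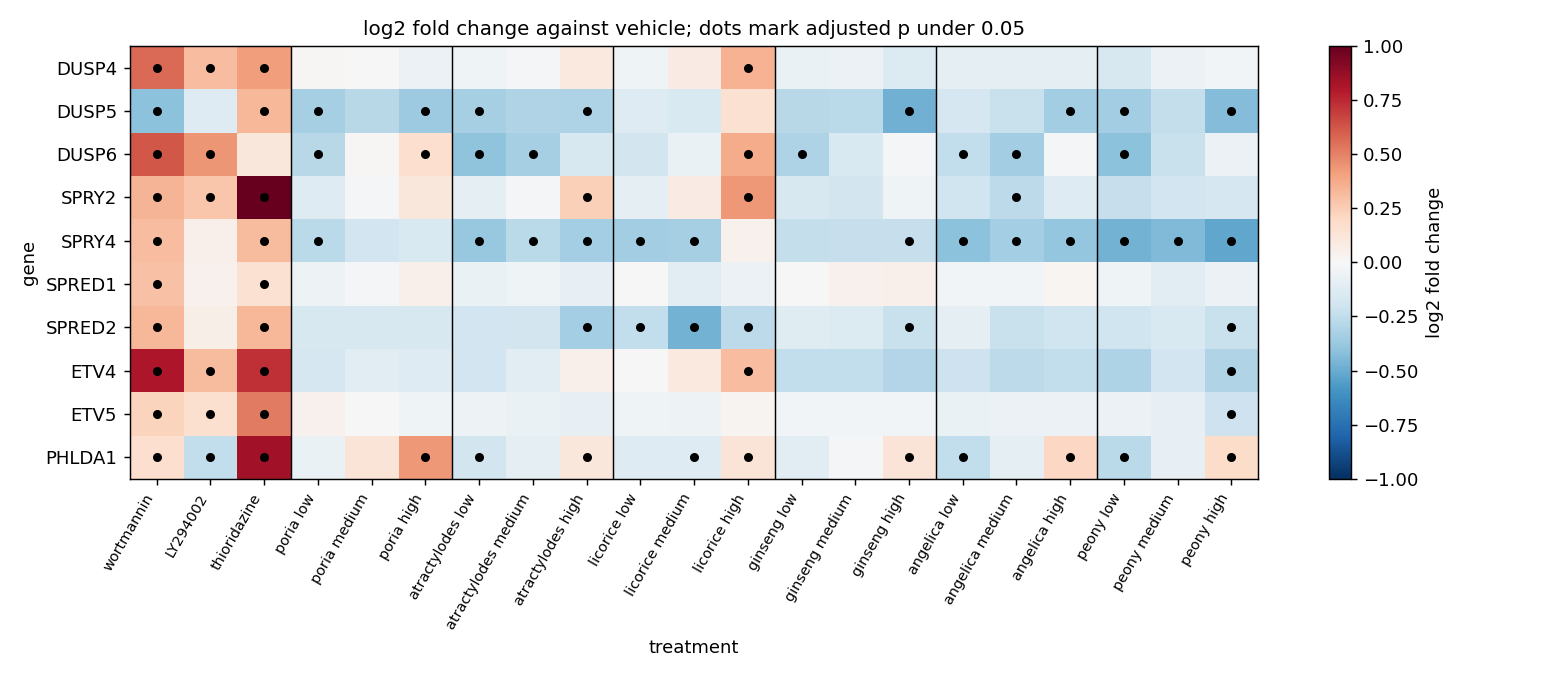
Log2 fold change of the 10 genes (rows) against vehicle for the 3 drugs and for each extract at low, medium and high dose (columns); red is above and blue below vehicle, and a dot marks an adjusted p under 0.05. The drug columns are mostly red, SPRY2 with thioridazine reaching 1.00, and SPRY4 is blue in each extract column but licorice high (0.04), down to -0.52 with peony high.

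Across the 22 groups the widest spans were those of SPRY2, ETV4, PHLDA1 and DUSP6, whose highest group mean was 2.4, 2.18, 2.16 and 2.03 times the lowest. SPRED1 moved least, by 1.31 times. DUSP4 ranked wortmannin, thioridazine, licorice high and LY294002 at 162 ± 5.96, 146 ± 4.07, 140 ± 5.23 and 136 ± 5.14 CPM, the last 3 separated by less than the sum of neighbouring SDs, and then atractylodes high at 117 ± 1.53 CPM. ETV4 had the same 4 groups on top, at 16.1 ± 0.641 CPM in wortmannin, 15.2 ± 1.23 in thioridazine, 11.4 ± 0.433 in LY294002 and 11.3 ± 0.412 in licorice high. Over group means of log2 CPM, DUSP4 and ETV4 had a Pearson r of 0.97 over 22 groups and 0.90 over the 19 groups without drugs, as a description of groups that share sets, medium and scaling. DUSP6 and PHLDA1 had 0.43 with the drugs and 0.76 without them. The pairs of SPRED1 or SPRED2 with DUSP4 or ETV4 lay at 0.59 to 0.67 with the drugs and at -0.41 to -0.32 without them. Over all pairs of the 10 genes, r ran from 0.06 to 0.97 with the drugs and from -0.41 to 0.90 without them. By the same measure, the genes most like DUSP6 among 11153 compared were MACO1 (0.86), FOXL1 (0.83) and A4GALT (0.83). Those most like SPRY4 were LRRC8A (0.90), MEF2D (0.90) and TBX3 (0.89), and those most like ETV5 were TIMM10B (0.95), GABARAP (0.95) and UNK (0.94). Without the drugs these 9 values lay between 0.57 and 0.84.

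Other genes of the pathway moved in both directions, as did the genes tested as a whole. Over all genes, 15.4% passed higher and 16.4% lower with wortmannin, 19.4% and 19.9% with LY294002, and 24.6% and 23.8% with thioridazine. Of the 8 other MAP kinase phosphatases, 1 rose and 3 fell with wortmannin (median log2 fold change -0.16), 2 rose and 2 fell with LY294002 (-0.13), and 1 rose and 3 fell with thioridazine (-0.28), against a median of 0.02 over all genes in each comparison, in which 31.7%, 39.3% and 48.4% of all genes passed. The wortmannin and LY294002 counts rest on borderline calls: leaving out 1 library gave 0 higher and 1 to 3 lower with wortmannin, and 1 to 2 higher and 1 to 2 lower with LY294002. The higher gene with wortmannin was lost without any one of the 6 libraries. The lower count fell to 1 without any one of these but vehicle replicate 2. With LY294002 the higher count fell to 1 without vehicle replicate 1 or 2 or LY294002 replicate 2 or 3, and the lower count without vehicle replicate 1 or 2 or LY294002 replicate 1 or 2. DUSP1, a nuclear phosphatase of stress-activated kinases as well as ERK, read 18.6 ± 0.583 CPM in thioridazine and 30.7 ± 0.875 CPM in vehicle (SD, n = 3 each; -0.72 ± 0.10), but 65.0 ± 3.79 CPM at high dose of licorice and 39.2 ± 2.34 CPM at low dose (0.73 ± 0.09, adjusted p = 3.65e-08). DUSP10, which prefers p38 and JNK, rose with thioridazine (0.84 ± 0.07) and fell at high against low dose of peony (-0.89 ± 0.10) and poria (-0.49 ± 0.08).

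In the comparisons with vehicle, the share of all genes that passed was 31.7% with wortmannin, 39.3% with LY294002 and 48.4% with thioridazine. Of 13 other feedback and family genes, 3 rose and 3 fell with wortmannin, 3 rose and 4 fell with LY294002, and 4 rose and 1 fell with thioridazine. The 4 lower with LY294002 became 2 without vehicle replicate 1, and the 1 lower with thioridazine became 2 without vehicle replicate 2. ETV1, the third PEA3-group factor, rose with all 3 drugs: it averaged 110 ± 3.15 CPM in wortmannin, 86.2 ± 1.52 in LY294002, 118 ± 0.876 in thioridazine and 55.9 ± 1.29 in vehicle (0.98 ± 0.04, 0.63 ± 0.04 and 1.08 ± 0.04). Of 20 genes of the cascade itself, 2 rose and 6 fell with wortmannin, 2 rose and 7 fell with LY294002, and 5 rose and 5 fell with thioridazine, with medians of -0.02, -0.05 and -0.01. Leaving out 1 library took the 2 higher to 1 with wortmannin (vehicle replicate 1) and with LY294002 (vehicle replicate 2 or 3 or LY294002 replicate 1), and the 5 lower to 3 with thioridazine (vehicle replicate 1 or 3 or thioridazine replicate 1). It took the 7 lower to 5 with LY294002 (vehicle replicate 3 or LY294002 replicate 1 or 3). Among 18 receptors and ligands tested, 5 rose and 6 fell with wortmannin, 5 rose and 9 fell with LY294002, and 10 changed with thioridazine, each of them lower, with HBEGF, an EGF-receptor ligand, at -1.20 ± 0.07. The 9 lower with LY294002 became 6 without vehicle replicate 3. The 10 lower with thioridazine became 8 without thioridazine replicate 3 and 11 without thioridazine replicate 1. Of 15 other ERK target genes, 7 rose and 2 fell with wortmannin, 5 rose and 7 fell with LY294002, and 5 rose and 6 fell with thioridazine. The 7 higher with wortmannin became 5 without vehicle replicate 3 or wortmannin replicate 1 or 2. EPHA2, a receptor kinase, fell with all 3 drugs (-0.36 ± 0.04 with wortmannin, -0.45 ± 0.04 with LY294002 and -1.09 ± 0.04 with thioridazine), and FOSL1, an AP-1 subunit, averaged 126 ± 5.29 CPM in LY294002 and 261 ± 12.3 CPM in vehicle (-1.05 ± 0.10). Among the target genes that rose were PLAUR (0.39 ± 0.06) and HMGA2 (0.43 ± 0.07) with wortmannin, and TRIB1 (0.58 ± 0.06) with LY294002.

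At high against low dose of licorice, 9 of the 15 ERK target genes rose and 2 fell, with a median of 0.26 against 0.00 over all genes, of which 18.2% passed. LIF, a cytokine gene, averaged 122 ± 3.66 CPM at high dose and 54.9 ± 1.99 CPM at low dose (1.16 ± 0.08, adjusted p = 9.25e-16), and IER3, an early-response gene, 11.4 ± 1.08 CPM at high dose and 3.17 ± 0.364 CPM at low dose (1.85 ± 0.14). With atractylodes 7 of the 15 rose and 1 fell, where 4.1% of all genes passed, LIF by 1.13 ± 0.08 and IER3 by 1.93 ± 0.15. LIF also rose with peony (1.14 ± 0.10), poria (0.75 ± 0.08) and angelica (0.40 ± 0.11, adjusted p = 0.0472, lost when any of 3 single angelica libraries was left out), while with ginseng it did not pass (0.24 ± 0.08, adjusted p = 0.26). The cascade itself gave 3 higher and 2 lower of 20 with licorice, and the other phosphatases 2 higher of 8, DUSP8 among them. Leaving out any high-dose or low-dose licorice library but low replicate 3 took the phosphatases to 1, as DUSP8 was lost. Of the 2 lower, 1 was left for the cascade without licorice low replicate 1 or 2 or high replicate 2 or 3, and 1 for the ERK targets without licorice high replicate 1 or 2 or low replicate 2 or 3. The 1 lower target with atractylodes was lost without low replicate 1 or 2 or high replicate 2, and the higher targets numbered 9 to 10 with licorice and 5 to 7 with atractylodes when 1 library was left out.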

How the data were processed

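RNA from SW1783 cells was made into directional libraries and read as 100-base pairs, per the labels' protocols. FastQC 0.11.9, Trim Galore 0.6.5, STAR 2.7.3a, RSEM 1.3.3 and the builds hg38 and GRCh38 are named in the submitters' processing notes, and how strand was set in counting is not stated there. The authors deposited RSEM expected counts per gene, estimated counts that need not be whole: 9.5% of the values used were not whole at a tolerance of 1e-06, and edgeR was given the nearest whole number. Of the table's 279 columns, 60 matched a labelled sample by name and 219 were not used. Totals ran from 19.45 M to 30.87 M counts per library, with a median of 26.0 M.

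Genes were named through GENCODE 29, and sequences came from RefSeq tables. One edgeR 4.0.16 quasi-likelihood model over all 22 groups (R 4.3.3, limma 3.58.1, TMM scaling, default expression filter with a minimum count of 10) tested 17919 genes in 30 comparisons, and 8 further contrasts were added after the values were seen. The threshold was a Benjamini-Hochberg adjusted p of 0.05 within each comparison over all genes tested, and the SE is the log2 fold change divided by the square root of F. The model was also run on counts simulated for wortmannin against vehicle, with an equal spread for every gene and no difference between sets, unlike these data. It recovered 39 of 50 genes changed 1.25-fold, and 12 unchanged genes were called. The alternatives were DESeq2 1.42.0, RLE size factors, no filter, a replicate block, the 2 groups fitted alone, each library left out in turn and, added later, the 3 libraries that stand apart left out.

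All 10 genes are described. From 5 lists of other pathway genes, up to 3 genes of smallest p per list and comparison could be named, and for DUSP6, SPRY4 and ETV5 the 3 genes of highest Pearson r among those averaging at least 5 CPM. The members and lists were chosen with earlier results of these data known. Nothing in the labels says that replicates came from separate cultures, so p-values measure only the spread between these libraries, which may be technical. Deviations of same-numbered libraries from their group means correlated above 0.1 in every pair only for high against low dose of atractylodes (0.11 to 0.52). There the replicate block gave 4 calls instead of 3. Some other comparisons had positive correlations in every pair that were not all above 0.1. Examples are poria high against low dose (0.08 to 0.21) and wortmannin against LY294002 (0.02 to 0.27). No libraries of a group agreed within sampling noise. The vehicle is given as 0.1% DMSO in the sample labels and 2% in the series text.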

Additional observations from a re-analysis of the deposited data

Results flagged for a closer look

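The step from low to high dose differed between extracts in 8 cases, by a contrast of the step in 1 extract with the mean step of the other 5, tested in edgeR's model and adjusted by Benjamini-Hochberg over all genes. The contrasts were added after the values were seen, and licorice stands out for 7 of the 8.

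With licorice the step was larger for DUSP4 by 0.37 ± 0.06 (SE, log2, adjusted p = 2.49e-06), DUSP5 by 0.38 ± 0.09 (adjusted p = 0.00129), DUSP6 by 0.24 ± 0.07 (adjusted p = 0.00495), SPRY2 by 0.35 ± 0.07 (adjusted p = 0.000125) and SPRY4 by 0.37 ± 0.08 (adjusted p = 0.000295), where 10.2% of all genes passed with a larger step. These 5 calls held under each alternative run. ETV5 also had a larger step with licorice (0.12 ± 0.04, adjusted p = 0.0315), lost under 7 alternatives with an adjusted p of up to 0.255. PHLDA1 had a smaller step with licorice (-0.13 ± 0.04, adjusted p = 0.0259), lost under 5 with an adjusted p of up to 0.207.

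With poria the step of PHLDA1 was larger than over the other extracts by 0.17 ± 0.04 (adjusted p = 0.0331), where 1.42% of all genes passed. That call was lost under 10 alternatives, with an adjusted p of up to 0.181.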

How the results depend on the processing

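Of the 25 calls of the 10 genes for drugs against vehicle, all 25 held under each alternative run, as did 19 of 24 between drugs, 9 of 19 for high against low dose, 12 of 27 for high dose against vehicle, 4 of 9 for medium and 6 of 17 for low dose; no called value changed sign. With the 2 groups fitted alone, the count of genes called was 5 for poria high and 5 for angelica high against vehicle (3 each in the model of all groups), 2 for atractylodes high against vehicle (5), 1 for ginseng high against low (2) and 20 for the medium doses (9). For high against low dose of atractylodes and of angelica, edgeR fitted on the 2 groups alone called 0 genes, with 4 and 2 at an unadjusted p under 0.05, while DESeq2 called 3 and 1. DESeq2 gave 14 medium-dose calls; without the 3 libraries that stand apart there were 15, and 3 for atractylodes high against vehicle. Leaving out 1 library gave 9 to 19 low-dose and 6 to 10 medium-dose calls. Against vehicle it gave 10 to 10 for wortmannin, 6 to 6 for LY294002, 9 to 10 for thioridazine, 2 to 3 for poria high, 3 to 6 for atractylodes high, 5 to 7 for licorice high, 1 to 4 for ginseng high, 1 to 3 for angelica high and 4 to 6 for peony high. It gave 6 to 8 for wortmannin against LY294002, 8 to 9 for thioridazine against LY294002 and 5 to 7 for thioridazine against wortmannin. For high against low dose it gave 2 to 3 for poria, 2 to 3 for atractylodes, 5 to 7 for licorice, 1 to 2 for ginseng, 1 to 1 for angelica and 1 to 3 for peony. A group of 2 less 1 library was assumed to vary like the other groups. The replicate block gave 19 low-dose calls, 5 for ginseng high against vehicle and 10 for thioridazine against LY294002, and moved no count by more than 1.5 times; the labels do not say that numbers pair the libraries. The cause of these differences was not tested.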
